A study of Mus musculus with 3 samples.

Results

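Macrophages of inflamed sciatic nerve were divided by Ly6c2, which encodes the surface protein Ly6C2 found at high levels on the classical monocytes of mouse blood. The cells were those that the authors named Mac (their cluster 7, 1 of 14) and that held no UMI of the T cell receptor genes Cd3e or Cd3g. A UMI is a molecular tag that counts 1 captured RNA molecule. Cells with 2 or more Ly6c2 UMIs were called Ly6c2-positive (188 cells) and cells with none Ly6c2-negative (248 cells), so that 436 of 11640 cells in the series, and 436 of 581 macrophages, were compared. The other macrophages were 102 cells with a Cd3e or Cd3g UMI and 43 cells with exactly 1 Ly6c2 UMI.

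The libraries hold the CD45+ (leukocyte) fraction of sciatic nerves of mice with the genotype NOD.AIRE GW/+ at 15 weeks of age, animals of the autoimmune-prone NOD background with 1 altered copy of Aire, a gene needed for the thymus to delete self-reactive T cells. Wild-type nerves are not analysed here. Every library has the GW allele, so both classes of cells carry the same allele and the comparison measures no effect of genotype. Libraries 1 and 2 were sequenced from the 3′ end and library 3 from the 5′ end. Each library gave both classes, and the comparison was made within libraries. The labels do not say whether the libraries come from separate animals, and the p-values therefore speak only to the spread from library to library. The labels do not say from which layer of the nerve a macrophage came.

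Blood monocytes with high Ly6C carry the chemokine receptor CCR2, follow its ligands into inflamed tissue and there mature into macrophages, losing Ly6C as they do so. Macrophages that live in a tissue typically make complement C1q, which tags debris and dying cells for uptake, and peripheral nerve has resident macrophages both among its fibres (endoneurial) and in its outer sheath (epineurial). Chemokines made by such cells draw in other leukocytes. These statements are background and were not measured here.

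The libraries held 6033, 2333 and 3274 cells with 22587246, 11398628 and 13791264 UMIs. Ly6c2-positive cells numbered 128, 27 and 33 in libraries 1, 2 and 3, with 919602, 266977 and 254996 UMIs in all. Ly6c2-negative cells numbered 163, 70 and 15, with 1039569, 566016 and 44566 UMIs. The negative class of library 3 was therefore the smallest of the 6 sums by far, and it stood apart in other ways. Its median cell held 1469 UMIs, against 8478 in the positive class of that library, a 5.77-fold gap. The medians of positive and negative cells were 7223 and 6797 in library 1 (ratio 1.06), and 10304 and 8984.5 in library 2 (ratio 1.15). At least 3 of the 5 macrophage markers Csf1r, Adgre1, Cd68, Fcgr1 and Lyz2 were seen in 125 of 128, 27 of 27 and 32 of 33 positive cells, and in 150 of 163, 61 of 70 and 5 of 15 negative cells. None of 1950 B cells held as many. The macrophage label thus held for most cells of both classes in libraries 1 and 2 and for few of the negative cells of library 3. Of those, 3 of 4 cells with 3000 or more UMIs held as many markers, against 2 of 11 shallower cells. Of the 15 cells, 1 held 182 of the 206 Ccl8 UMIs and 1 held 115 of the 136 C1qa UMIs. The main results are therefore given with and without library 3. Mitochondrial RNA made up a median of 2.90%, 2.06% and 1.05% of UMIs, against 3.91%, 3.48% and 1.47% in negative cells. The part of depth and mitochondrial share in the differences was not tested beyond the settings given in the closing section.

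The members were chosen by their Ly6c2, Cd3e and Cd3g UMIs, so the Ly6c2 values are a description. Positive cells held 725, 200 and 399 Ly6c2 UMIs in libraries 1, 2 and 3, with a median of 4, 5 and 10 per cell and a highest value of 26, 27 and 35. They made up 39.9% (exact 95% interval 34.5 to 45.5), 26.2% (18.0 to 35.8) and 60.0% (45.9 to 73.0) of the macrophages without Cd3e or Cd3g. With cells under 3000 UMIs left out and the others thinned to 3000 UMIs, the shares were 29.1%, 14.3% and 71.1% of 299, 91 and 38 cells. In library 3 this left out 11 of 15 negative and 4 of 33 positive cells, so its share is not comparable with the unthinned one. Intervals cover counting error only. At least 1 Ly6c2 UMI was seen in 50.9% of all macrophages, against 0.718% of B cells, which should lack it, at most 0.264% of the authors' Cd4, Cd8, Treg and gdT/NK/NKT classes and 1 of 291 cells of their class Mixed. Plasma cells (74.1%), plasmacytoid dendritic cells (61.7%) and conventional dendritic cells (21.1%) also held the transcript. Macrophages were thus not the only leukocytes of these nerves with Ly6c2.

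The cells next to the cut were compared by name only. In library 1, Ccr2 stood at 761 CPM in the 53 cells with 2 or 3 Ly6c2 UMIs, against 441 CPM in the 30 cells with 1 UMI. C1qa stood at 1323 and 3623 CPM in the same cells. In library 2, C1qa was at 700.3 CPM in 7 cells just inside the cut and 5631 CPM in 6 cells just outside it. These CPM (UMI counts of the summed cells, brought to a common total) are unscaled. Ccr2 in library 2 was at 405 CPM in cells with 2 or 3 UMIs, 397 CPM in cells with 1 and 88.3 CPM in cells with none. Cells with 1 UMI therefore lay between the classes for both genes in library 1. In library 2 they lay near the negative class for C1qa and near the positive class for Ccr2. In library 3 they did not lie between: Ccr2 was at 499 CPM in 3 cells with 2 or 3 UMIs, against 1399 CPM in 7 cells with 1, and C1qa at 55.5 CPM, against 22.6 CPM. The plot of levels by Ly6c2 count shows the rest.

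**Figure D1:**
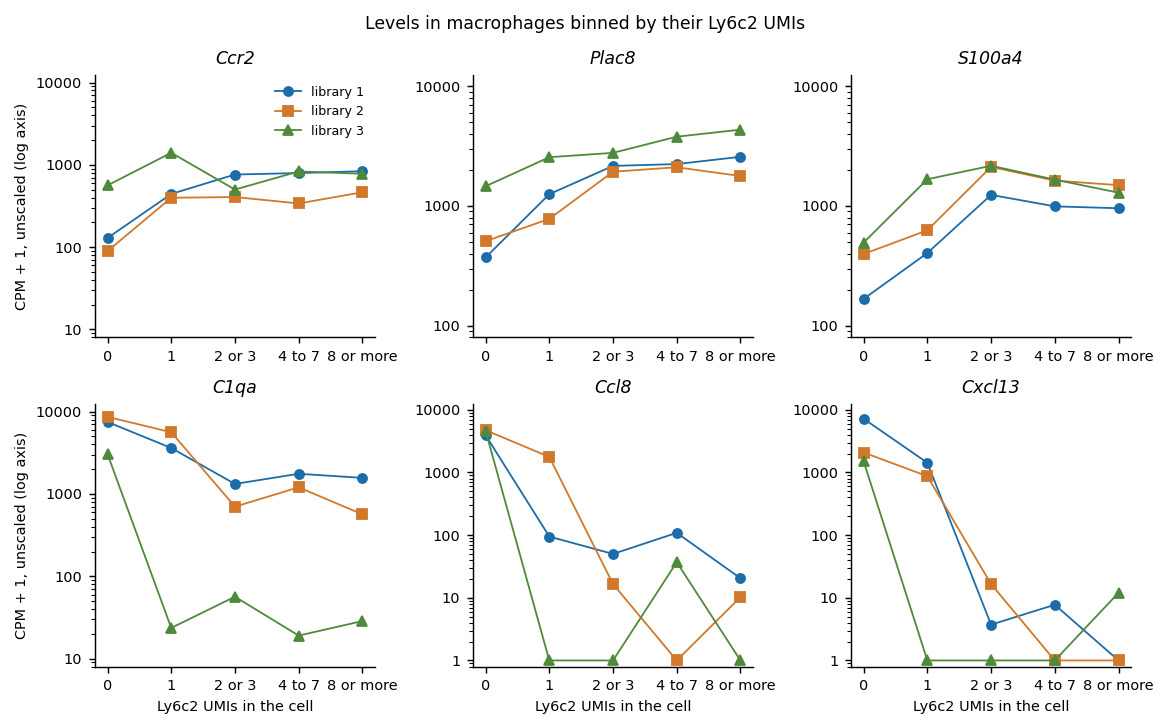
Level of 6 genes in macrophages binned by their Ly6c2 UMIs (x axis) as unscaled CPM + 1 on a log axis, 1 line per library; a point sums all cells of the bin, which hold 3 to 163 cells. Cxcl13 in library 1 stood at 7191 CPM in cells with no Ly6c2 UMI, 1427 CPM in cells with 1 and 2.73 CPM in cells with 2 or 3.

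UMIs were summed per class and library, and edgeR's quasi-likelihood test was run on the 6 sums with library as a block. Of 4258 genes tested, 37 were higher (0.869%) and 64 lower (1.5%) in Ly6c2-positive cells at a Benjamini-Hochberg adjusted p under 0.05, which is 2.37% of the genes in either direction. Of these 101 genes, 97 differed in the same direction in all 3 libraries. The 3 positive and 3 negative values did not overlap for 68 of the 101, against 494 of all 4258 genes (11.6%). Levels below are CPM scaled by edgeR's TMM factors and are given for libraries 1, 2 and 3 in that order, and fold changes are log2 with their standard errors. Of the 101 calls, 92 held without library 3, 46 without library 2 and 29 without library 1, each fit then resting on 2 libraries, and 26 held whichever library was left out. All 101 kept their sign in the fits that could test them, and 11 of them were too low for at least 1 such fit. For the 97 genes with the same direction in all 3 libraries, the kept sign was largely given by that direction. Without library 3, 71 genes were higher and 136 lower.

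**Figure D2:**
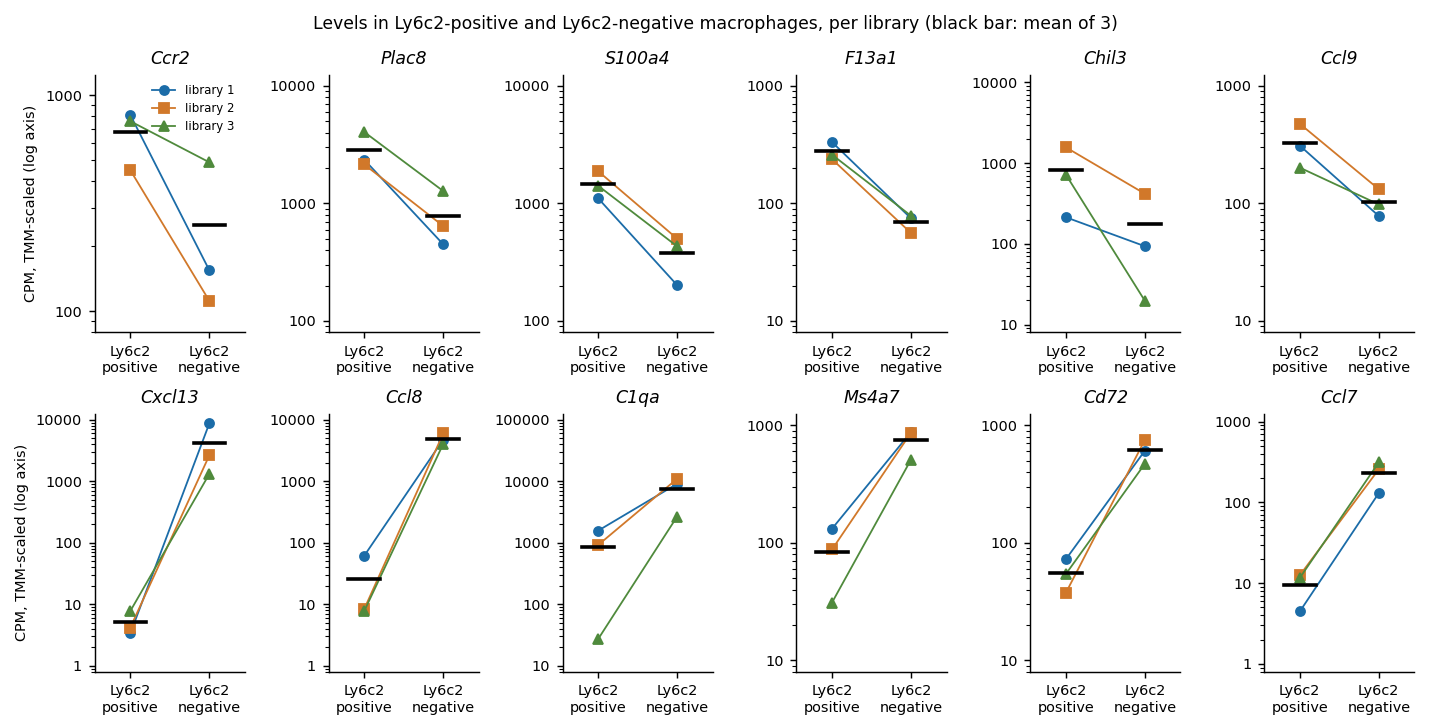
TMM-scaled CPM (log axis) of 12 genes in Ly6c2-positive (left) and Ly6c2-negative (right) macrophages, 1 point per library, lines joining the classes of a library and a black bar for the mean of 3. The positive values lie above the negative ones for Plac8, S100a4, F13a1 and Ccl9 and below them for Cxcl13, Ccl8, C1qa, Ms4a7, Cd72 and Ccl7, while Ccr2 and Chil3 differ within each library with classes that overlap.

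Chemokine genes differed in both directions, and Cxcl13 and Ccl8 had the largest decreases of all genes tested. Cxcl13 encodes the chemokine that draws CXCR5-bearing B cells and follicular helper T cells. Its UMIs numbered 3, 1 and 2 in positive cells, against 7476, 1178 and 67 in negative cells. The levels were 3.35, 4.17 and 7.75 CPM in positive cells and 8719, 2638 and 1314 CPM in negative cells. The positive class was near 0 in every library, and the classes did not overlap. The log2 fold change was -10.08 ± 0.67 (adjusted p = 1.76e-06, edgeR). Few UMIs were left in positive cells, so the ratio of Cxcl13 UMIs per total UMIs, positive over negative, is given too. It was 0.000454 (exact interval 9.35e-05 to 0.00133, counting error only) in library 1, 0.0018 (4.55e-05 to 0.01) in library 2 and 0.00522 (0.000619 to 0.0196) in library 3. The transcript was held by 3 of 128, 1 of 27 and 2 of 33 positive cells, against 101 of 163, 23 of 70 and 3 of 15 negative cells. In B cells, 50 of 1950 held it at a median of 3113.5 UMIs per cell, so the positive cells lay near the level of cells of another type. The fold change was -10.91 without library 3 and -8.26 without library 1.

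Ccl8, a ligand of CCR2 and, in mouse, CCR8, fell as well. It was at 61.4, 8.35 and 7.75 CPM in positive cells, against 4766, 5993 and 4041 CPM in negative cells (25.8 ± 30.8 and 4934 ± 986, mean ± SD, n = 3 libraries each). All 3 negative values lay far above the 3 positive ones. The log2 fold change was -7.51 ± 0.59 (adjusted p = 3.94e-06, edgeR), and it was -6.86 without library 3 and -9.26 without library 1. In library 1, 1 of the 128 positive cells held 30 of the 55 Ccl8 UMIs. Ccl8 was held by 102 of 163, 48 of 70 and 4 of 15 negative cells. Most of these cells also held C1qa, namely 101 of 102, 48 of 48 and 3 of 4. Ccl8 and Cxcl13 shared cells in part. Of negative cells, 85, 19 and 3 held both, 17, 29 and 1 held Ccl8 alone, 16, 4 and 0 held Cxcl13 alone, and 45, 18 and 11 held neither. Library 2 thus had more cells with Ccl8 alone than with both.

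Ccl7 and Ccl12, further CCR2 ligands, lay on the same side. Ccl7 was at 4.46, 12.5 and 11.6 CPM in positive cells, against 131, 258 and 314 CPM in negative cells, with no overlap (log2 fold change -4.64 ± 0.37, adjusted p = 3.94e-06, edgeR). In library 3, 1 negative cell held 15 of 16 Ccl7 UMIs. Ccl12 was at 87.0, 50.1 and 361 CPM in positive cells, against 609.9, 385 and 942 CPM in negative cells (-2.34 ± 0.32, adjusted p = 0.000793). Library 3 was highest in both classes, and no positive value reached a negative one. The Ccl7 call was lost when cells with 1 Ly6c2 UMI were counted as positive, at a fold change of -1.61.

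Ccl6 and Ccl9, neighbouring genes for ligands of CCR1, rose. Ccl6 was at 469.8, 868 and 667 CPM in positive cells, against 182, 199 and 177 CPM in negative cells, and Ccl9 at 310.2, 476 and 202 CPM, against 78.1, 132 and 98.1 CPM. The log2 fold changes were 1.77 ± 0.27 for Ccl6 (adjusted p = 0.00232, edgeR) and 1.81 ± 0.26 for Ccl9 (adjusted p = 0.00144), and neither gene's classes overlapped. The Ccl9 call did not hold without library 1. Ccl2, the best known CCR2 ligand, was not called at a log2 fold change of 0.58 ± 0.25 (adjusted p = 0.352). Of the 20 genes in the chemokine list, which does not hold Cxcl13, 15 were tested, 2 were higher and 3 lower, and the median log2 fold change was -0.36, against 0.03 over all genes tested. The list median was 0.48 without library 3 (3 higher and 3 lower) and -1.61 without library 2 (2 higher and 6 lower), so it has no stable sign. Ccl8, among the 3 lower genes, came with the definition of the comparison and adds no independent weight to the count. Ccl3, Ccl4, Ccl5, Cxcl9 and Cxcl10 were among the 10 not called. Ccl5, a chemokine that T and NK cells also make, was at 2457, 3348 and 1059 CPM in positive cells, against 3180, 1326 and 9142 CPM in negative cells. Its highest value was in the negative cells of library 3, where T and NK cell markers also summed highest, and the part of such RNA was not tested.

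These genes lie on chromosome 11 (build mm10, GENCODE M21), in the order Ccl2 (82035571 to 82037453), Ccl7 (82045712 to 82047525), Ccl12 (82101845 to 82103400), Ccl8 (82115185 to 82116799), then Ccl9 (83572919 to 83578636) and Ccl6 (83587882 to 83593087). Ccl7, Ccl12 and Ccl8, which fell, and Ccl9 and Ccl6, which rose, thus form 2 separate blocks, with Ccl5 the tested gene between them. The blocks hold called genes only. Ccl2, next to Ccl7, was at a log2 fold change of 0.58. Ccl3 and Ccl4, which follow Ccl6 along the chromosome, were at -0.98 and -1.07, and none of these was called. The promoters of the called genes, the 250 bases before the RefSeq start site (GRCm38.p6, the assembly of mm10), are shown because the called genes of each block moved together. Capitals mark the hexamer GAGGAA (an ETS core that PU.1 also binds), TGCTGA (a MAF element), TGANTCA (AP-1) or an NF-kB element, on either strand. The RefSeq table used here gave no entry for Ccl7.

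Ccl12, chr11:82101595-82101844, plus strand: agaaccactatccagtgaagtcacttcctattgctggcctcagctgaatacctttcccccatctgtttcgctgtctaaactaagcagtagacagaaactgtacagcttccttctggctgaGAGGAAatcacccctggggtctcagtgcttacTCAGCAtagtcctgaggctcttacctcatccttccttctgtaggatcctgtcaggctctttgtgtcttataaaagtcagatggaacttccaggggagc
Ccl8, chr11:82114935-82115184, plus strand: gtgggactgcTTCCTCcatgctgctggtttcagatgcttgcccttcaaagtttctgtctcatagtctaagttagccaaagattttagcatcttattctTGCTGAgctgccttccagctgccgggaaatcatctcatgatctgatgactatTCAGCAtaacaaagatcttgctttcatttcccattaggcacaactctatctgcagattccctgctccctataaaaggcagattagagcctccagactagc
Ccl9, chr11:83578637-83578886, minus strand: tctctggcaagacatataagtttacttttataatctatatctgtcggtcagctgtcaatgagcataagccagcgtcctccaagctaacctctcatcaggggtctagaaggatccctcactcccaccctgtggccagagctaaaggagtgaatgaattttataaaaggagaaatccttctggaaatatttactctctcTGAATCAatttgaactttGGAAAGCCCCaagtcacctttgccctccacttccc
Ccl6, chr11:83593088-83593337, minus strand: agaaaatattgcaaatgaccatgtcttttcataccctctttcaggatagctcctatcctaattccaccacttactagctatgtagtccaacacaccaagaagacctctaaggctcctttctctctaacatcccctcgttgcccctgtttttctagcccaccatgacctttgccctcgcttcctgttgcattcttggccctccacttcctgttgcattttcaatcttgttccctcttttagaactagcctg

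The promoters of Ccl12 and Ccl8 each held GAGGAA and TGCTGA. Over 32851 promoters of the same length, 23.3% held GAGGAA and 16.1% TGCTGA, so both are common. The Ccl9 promoter held TGANTCA (6.75% of promoters) and the NF-kB element (1.41%). The Ccl6 promoter held none of the 6 motifs searched, which also included TTGCNNAA (C/EBP, 9.56%) and the interferon response element (2.98%). A match describes letters in the window and shows no binding.

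**Figure D3:**
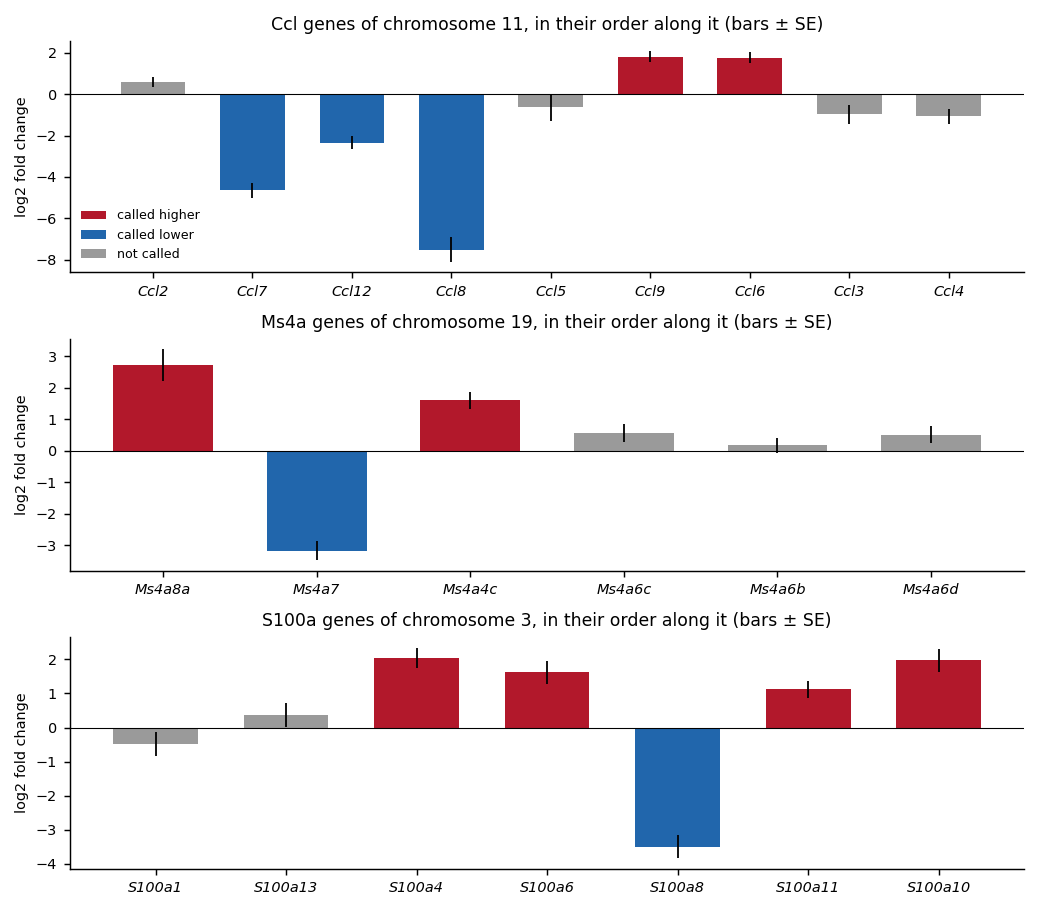
Log2 fold changes of Ly6c2-positive over Ly6c2-negative macrophages with standard errors (bars from 0), for tested genes of the Ccl, Ms4a and S100a families in chromosomal order. Each family has members on both sides of 0: Ccl9 and Ccl6 above and Ccl7, Ccl12 and Ccl8 below, Ms4a8a and Ms4a4c above and Ms4a7 below, and 4 S100a genes above with S100a8 below.

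The 3 chains of complement C1q fell together in Ly6c2-positive cells. C1qa was at 1572, 918 and 27.1 CPM in positive cells, against 9096, 10973 and 2668 CPM in negative cells (839 ± 776 and 7579 ± 4355, mean ± SD, n = 3 libraries each). Library 3 was lowest in both classes, and the classes did not overlap. The log2 fold change was -3.86 ± 0.61 for C1qa (adjusted p = 0.00259, edgeR), -3.40 ± 0.54 for C1qb (adjusted p = 0.00271) and -3.32 ± 0.47 for C1qc (adjusted p = 0.00127). Without library 3 they were -3.01, -2.67 and -2.69, and all 3 stayed called. C1q was not absent from positive cells. C1qa was held by 63 of 128, 9 of 27 and 3 of 33 of them, against 134 of 163, 59 of 70 and 4 of 15 negative cells. Of the 11 complement genes tested from a list of 14, these 3 were lower and none was higher, with a list median of -0.23. Of all genes tested, 1.5% were lower. C1qa came with the definition of the comparison and adds no independent weight to that count.

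The C1q genes lie side by side on chromosome 4, with C1qb at 136880129 to 136886187, C1qc at 136889804 to 136893065 and C1qa at 136895917 to 136898803. Their promoters are shown for the same reason as above, and the RefSeq table used here gave none for C1qa.

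C1qb, chr4:136886201-136886450, minus strand: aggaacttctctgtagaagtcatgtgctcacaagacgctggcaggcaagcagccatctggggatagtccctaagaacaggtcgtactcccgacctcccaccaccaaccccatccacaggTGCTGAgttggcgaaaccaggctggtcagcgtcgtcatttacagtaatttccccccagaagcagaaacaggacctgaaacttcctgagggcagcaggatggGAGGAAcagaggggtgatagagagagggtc
C1qc, chr4:136892915-136893164, minus strand: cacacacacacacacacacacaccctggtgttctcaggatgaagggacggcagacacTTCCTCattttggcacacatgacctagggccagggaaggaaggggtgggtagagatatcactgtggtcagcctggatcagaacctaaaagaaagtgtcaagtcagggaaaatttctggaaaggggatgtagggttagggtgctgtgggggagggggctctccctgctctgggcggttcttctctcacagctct

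Both held GAGGAA, in C1qc on the opposite strand (TTCCTC), and C1qb also held TGCTGA.

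Genes of resident macrophages other than C1q were lower too. Ms4a7, a membrane protein gene used to mark macrophages, was at 132, 87.7 and 31.0 CPM in positive cells, against 876, 864 and 510.1 CPM in negative cells (-3.17 ± 0.30, adjusted p = 2.82e-05, edgeR). Mrc1, the mannose receptor, was at 14.5, 20.9 and 0 CPM, against 68.8, 67.2 and 39.2 CPM (-2.19 ± 0.43, adjusted p = 0.0121), a call lost without library 1. Adgre1, which encodes F4/80, was at 117, 129 and 105 CPM, against 299.7, 318 and 157 CPM (-1.20 ± 0.26, adjusted p = 0.0203). Among the fits with a library left out, its call held only without library 3. None of the 3 genes overlapped between the classes. Of the 28 genes in the tissue macrophage list, 16 were tested and 7 were lower (the 3 C1q genes, Ccl8, Ms4a7, Mrc1 and Adgre1), with none higher and a median of -1.17. Without library 1, 2 or 3 the lower genes numbered 5, 8 and 10. Ccl8 and C1qa came with the definition of the comparison and were known from these data, so they add no independent weight to that count. Csf1r, the receptor for colony-stimulating factor 1, averaged 680.5 ± 105 CPM in positive cells and 808 ± 221 CPM in negative cells and was not called.

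Endoneurial macrophage genes behaved likewise. Tmem119, known as a marker of brain microglia, was at 20.1, 20.9 and 7.75 CPM in positive cells, against 122, 114 and 157 CPM in negative cells (-2.77 ± 0.35, adjusted p = 0.000449, edgeR). Olfml3, a secreted protein also made by microglia, was lower by -2.47 ± 0.43 and Cd9, a tetraspanin, by -2.47 ± 0.46 on the log2 scale (adjusted p = 0.00565 and 0.00913), and all 3 calls held whichever library was left out. Cx3cr1, the fractalkine receptor, was at 551, 238 and 174 CPM, against 1017, 692 and 314 CPM (-1.11 ± 0.27, adjusted p = 0.0497). Its classes overlapped and its call was lost without library 1 or 2, without the 3 cells highest in S100a8 described below, and under 8 other settings. Of 11 endoneurial genes, 8 were tested and these 4 were lower, and the median was -1.07. Without library 3, 7 were lower. The epineurial list could not be read, since 1 of its 11 genes was tested (F13a1, below).

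Other genes with large decreases had varied roles. Cd72, an inhibitory receptor best known from B cells, was at 72.5, 37.6 and 54.3 CPM in positive cells, against 609, 752 and 471 CPM in negative cells (-3.41 ± 0.31, adjusted p = 1.66e-05, edgeR). The summed B cell markers were lower in positive cells of libraries 1 and 2 and higher in library 3, at 122, 33.7 and 149 unscaled CPM in positive cells and 166, 60.1 and 89.8 CPM in negative cells, and their part was not tested. Hpgds, which makes prostaglandin D2, was at 10.0, 12.5 and 0 CPM, against 118, 163 and 98.1 CPM (-3.77 ± 0.41, adjusted p = 8.84e-05). The tetraspanin Cd81 was at 12.3, 8.35 and 7.75 CPM, against 134, 91.8 and 177 CPM (-3.60 ± 0.37, adjusted p = 6.34e-05). All 3 were low in every positive sum and held whichever library was left out. The kinase gene Src (-3.45 ± 0.55, adjusted p = 0.00271) and the stress cytokine gene Gdf15 (-3.42 ± 0.46, adjusted p = 0.000778) were lower as well, but were too low to be tested without library 1. Timp2, an inhibitor of matrix metalloproteases, was lower at -3.24 ± 0.34 (adjusted p = 6.34e-05), and so were both receptors for TGF-β tested, Tgfbr2 at -1.48 ± 0.28 (adjusted p = 0.0106) and Tgfbr1 at -1.22 ± 0.26 (adjusted p = 0.0218). Among the fits with a library left out, the Tgfbr1 and Tgfbr2 calls held only without library 3. Vcam1, an adhesion molecule, was lower by -2.08 ± 0.33 (adjusted p = 0.00259) and the lysosomal tetraspanin Cd63 by -2.65 ± 0.54 (adjusted p = 0.0143). The Cd63 call was lost by DESeq2's Wald test (adjusted p = 0.818) and with scaling by total UMIs alone.

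S100a8 needs separate mention. It encodes a calcium-binding protein of neutrophils and monocytes, and was called lower at -3.51 ± 0.34 (adjusted p = 2.82e-05, edgeR), with 11.2, 45.9 and 38.8 CPM in positive cells, against 79.3, 412 and 883 CPM in negative cells. The negative UMIs came almost wholly from 1 cell per library, which held 60 of 68, 169 of 184 and 45 of 45 of them. These 3 cells had 1156, 1722 and 2238 UMIs and 2, 1 and 2 of the 5 macrophage markers, and the 1 in library 1 also held 105 S100a9 UMIs. S100a9 had no UMI in any cell of libraries 2 and 3. Without the 3 cells S100a8 was at a log2 fold change of 0.54 and not called (adjusted p = 0.75), a setting chosen after the data were seen. Neutrophil markers summed to 80.5, 97.4 and 122 unscaled CPM in positive cells, against 238, 436 and 1189 CPM in negative cells, and Ly6g was at 0 in both. That sum holds S100a8 and S100a9, and without them the other 4 markers in the table summed to 69.6, 56.2 and 82.4 CPM, against 71.2, 111 and 179.5 CPM. Without these cells 38 genes were higher and 61 lower, and 94 of the 101 calls were shared (34 higher and 60 lower).

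Genes of classical monocytes were higher in Ly6c2-positive cells. Ccr2 itself, the receptor that brings these monocytes into tissue, was at 812, 451 and 760.0 CPM in positive cells, against 155, 112 and 490.5 CPM in negative cells (674 ± 195 and 253 ± 207, mean ± SD, n = 3 libraries each). It was higher in each library, but the classes overlapped because the negative cells of library 3 exceeded the positive cells of library 2. The log2 fold change was 1.77 ± 0.33 (adjusted p = 0.00823, edgeR). It was 2.26 without library 3, and 1.26 and 1.66 without library 1 or 2, when it was not called. Plac8, a gene of myeloid and lymphoid cells, was at 2358, 2149.7 and 4056 CPM, against 449, 643 and 1275 CPM (1.94 ± 0.33, adjusted p = 0.00483). F13a1, coagulation factor XIII subunit A, was at 333, 238 and 259.8 CPM, against 74.6, 56.0 and 78.5 CPM (2.07 ± 0.26, adjusted p = 0.000449). Neither gene's classes overlapped, yet the F13a1 call was lost without library 1 and the Plac8 call without library 1 or 2. Chil3, the chitinase-like protein Ym1, was at 213, 1565 and 717 CPM, against 93.3, 417 and 19.6 CPM (1.95 ± 0.38, adjusted p = 0.0121). Its levels differed widely between libraries and the classes overlapped, but its direction was the same in all 3, and the call held whichever library was left out.

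Of the 24 genes in the classical monocyte list, 22 were tested, 8 were higher (Ccr2, Plac8, Chil3, S100a4, S100a6, F13a1, Ms4a4c and Thbs1) and 1 was lower (S100a8, which rests on 3 cells). Ccr2 came with the definition of the comparison and adds no independent weight to that count. Of the 22, 20 had a fold change above 0, against 2237 of all 4258 genes tested, and the median was 1.03. Without library 3, 12 were higher, and without library 1, 1 was. Lyz2, the lysozyme gene that all macrophages and monocytes share, averaged 10251 ± 4161 CPM in positive cells and 9487 ± 6218 CPM in negative cells and was not called. Of the 14 genes in the non-classical monocyte list, 8 were tested and 3 were lower, namely Cx3cr1, the transcription factor gene Pou2f2 (-1.10 ± 0.26, adjusted p = 0.0396, edgeR) and the scavenger receptor gene Cd36 (-2.87 ± 0.49, adjusted p = 0.00483). Without library 1 none of the 7 then tested was lower (median -0.14). The Pou2f2 call was lost without library 1 or 2 and under 7 other settings, and Cd36 could not be tested without library 1.

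S100 genes, which encode small calcium-binding proteins and lie in 2 groups on chromosome 3, held 4 of the rises. S100a4 was at 1107, 1883 and 1415 CPM in positive cells, against 202, 502 and 432 CPM in negative cells (2.05 ± 0.30, adjusted p = 0.0014, edgeR). S100a10, the partner of annexin A2, was at 409.6, 902 and 1000.4 CPM, against 136, 293 and 58.9 CPM (1.98 ± 0.34, adjusted p = 0.00529). S100a6 rose by 1.62 ± 0.35 (adjusted p = 0.0201) and S100a11 by 1.12 ± 0.25 (adjusted p = 0.0292). Of 7 S100a genes tested, these 4 were higher, S100a8 was lower, and S100a1 and S100a13 were not called. The S100a4 call was lost without library 1, those of S100a6 and S100a11 without library 1 or 2, and that of S100a10 held in all 3 such fits. In the Ms4a family on chromosome 19, Ms4a8a (2.71 ± 0.50, adjusted p = 0.00823) and Ms4a4c (1.60 ± 0.27, adjusted p = 0.00428) were higher and Ms4a7 was lower, of 6 tested. The Ms4a8a call was lost without library 1 and the Ms4a4c call without library 1 or 2. The families were grouped after their values were seen.

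Further genes rose. Hopx, a homeodomain-only protein, was at 158, 292 and 380.0 CPM in positive cells, against 43.2, 89.6 and 0 CPM in negative cells (2.05 ± 0.35, adjusted p = 0.00483, edgeR). Slpi, an inhibitor of neutrophil elastase, was at 62.5, 117 and 69.8 CPM, against 14.0, 35.8 and 0 CPM (2.00 ± 0.37, adjusted p = 0.00823). Adssl1, an enzyme of purine synthesis, was higher at 1.85 ± 0.30 (adjusted p = 0.00332) and Olr1, a receptor for oxidised LDL, at 1.89 ± 0.41 (adjusted p = 0.0247). None of these but Olr1 overlapped between classes. The Slpi call was lost without library 1 and with the positive class set at 4 or more Ly6c2 UMIs, the Adssl1 call with cells thinned to 3000 UMIs, and the Olr1 call without library 1, where its fold change was 1.10, and under 5 other settings beside the fit with no block. The galectin gene Lgals3 was higher at 1.67 ± 0.32 (adjusted p = 0.0106), the C-type lectin gene Clec4d at 1.61 ± 0.36 (adjusted p = 0.0289), the pyrin gene Mefv at 1.50 ± 0.37 (adjusted p = 0.049) and Thbs1, thrombospondin 1, at 1.47 ± 0.29 (adjusted p = 0.0117). Each of these calls was lost without library 1 or 2, and that of Clec4d in all 3 such fits.

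Ly6c1, which lies beside Ly6c2 on chromosome 15 (75044018 to 75048830) and is nearly identical to it, was at 127, 397 and 752 CPM in positive cells, against 4.66, 8.96 and 39.2 CPM in negative cells. The log2 fold change was 4.93 ± 0.36 (adjusted p = 2.83e-06, edgeR). How the authors' counting divided reads between the copies is not given in the sources used here, so the value is uncertain and may repeat the rule that made the classes.

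Ccr2 and C1qa did not exclude each other. Of positive cells, 53, 6 and 3 held both transcripts, 64, 14 and 28 held Ccr2 alone, 10, 3 and 0 held C1qa alone and 1, 4 and 2 held neither. Of negative cells, 29, 5 and 2 held both, 9, 9 and 7 held Ccr2 alone, 105, 54 and 2 held C1qa alone and 20, 2 and 4 held neither. Cells with both transcripts were thus a large part of the positive class in library 1 and few of it in library 3.

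**Figure D4:**
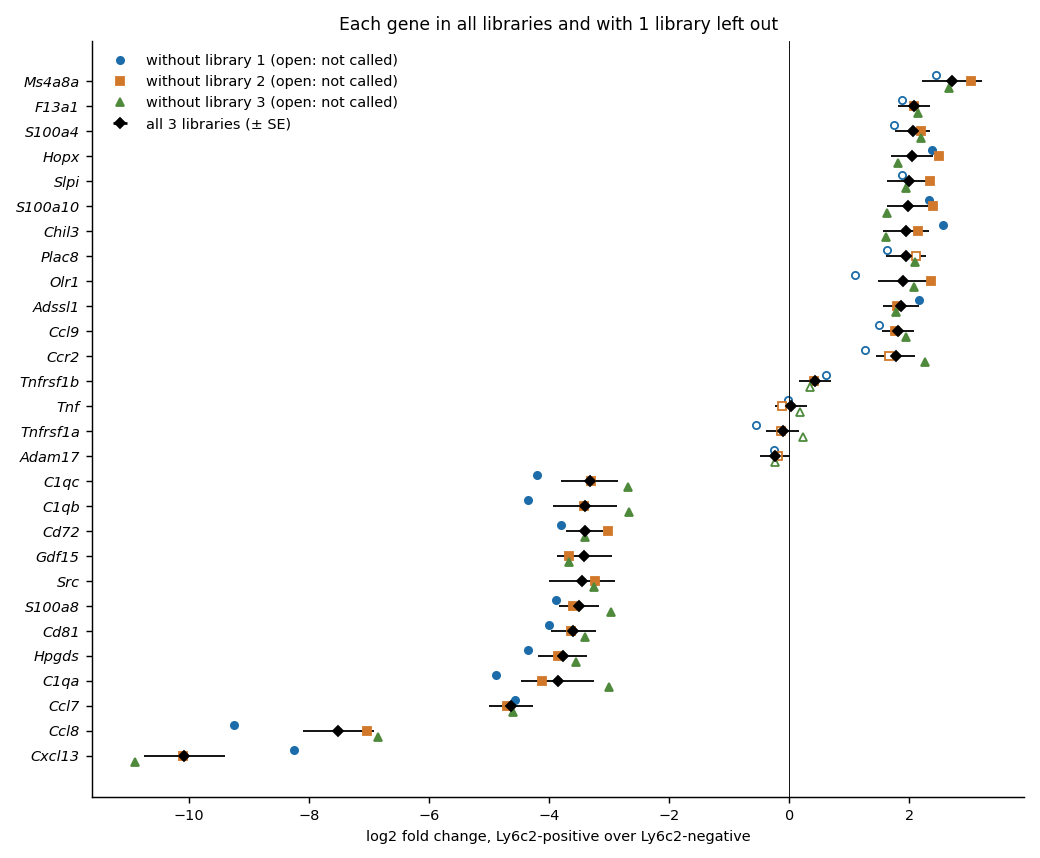
Log2 fold changes (Ly6c2-positive over Ly6c2-negative) of the genes with the largest changes, the markers Ccr2, C1qa and Ccl8 and 4 TNF genes, with all 3 libraries (black, ± standard error) and with each library left out in turn (open where not called). All called genes stay on their side of 0 while Tnf and Tnfrsf1a cross it, and points are missing where a gene was too low to be tested in a fit.

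Lists of inflammatory genes held no call, where 2.37% of all genes tested were called. At that share, lists of this size would hold few calls or none. Tnf, the cytokine, was at 39.1, 188 and 221 CPM in positive cells, against 42.0, 146 and 275 CPM in negative cells (149 ± 96.9 and 154 ± 117, mean ± SD, n = 3 libraries each). The libraries differed more than the classes, and the log2 fold change was 0.03 ± 0.27 (adjusted p = 0.989, edgeR). Adam17, which releases TNF from the membrane, was at -0.23 ± 0.25 (adjusted p = 0.809), the receptor genes Tnfrsf1a at -0.11 ± 0.28 (adjusted p = 0.93) and Tnfrsf1b at 0.42 ± 0.26 (adjusted p = 0.597). None of the 13 tested genes of the TNF list of 18 was called, and the median was 0.02. None of 16 NF-kB target and cytokine genes was called (median 0.31), among them Il1b at 3957 ± 2218 CPM in positive cells and 2436 ± 1026 CPM in negative cells. None of 19 interferon-γ genes was called (median 0.03). These misses do not show equal levels. In simulated counts the test found 49 of 100 genes changed by 1 on the log2 scale and 98 of 100 changed by 2. The simulation gave all genes a common spread and placed changes only in better expressed genes. Its rates need not hold for lower or more variable genes.

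Type I interferon genes had a median of 0.75 over 16 tested of 23, with 1 call. This was Zbp1, a sensor of Z-form nucleic acid, at 333, 513 and 516 CPM in positive cells, against 199, 213 and 235 CPM in negative cells (1.02 ± 0.25, adjusted p = 0.0436, edgeR), lost without library 1 or 2 and without the 3 cells highest in S100a8. Ifitm3, a restriction factor, averaged 3169 ± 1261 CPM in positive cells and 1083 ± 221 CPM in negative cells and did not pass. Glycolysis genes had a median of 0.73. All 14 tested of 16 had a fold change above 0, and 2 were called: Pgk1 (phosphoglycerate kinase) at 422, 250.4 and 500.2 CPM, against 161, 139 and 177 CPM (1.22 ± 0.25, adjusted p = 0.0153), and Eno1 (enolase) at 192, 321 and 570.0 CPM, against 96.8, 166 and 275 CPM (0.99 ± 0.23, adjusted p = 0.0392). Both calls were lost without library 1 or 2. Over all genes tested, 2237 of 4258 had a fold change above 0. Scaling by total UMIs alone raised the median of all genes by 0.16, and 39 genes were then higher and 31 lower, so that 55.7% of calls were higher, against 36.6% with TMM. Of the genes named by rule, those that lost their call under that scaling were Olr1, Clec4d, Mefv, Cd9, Cd63, Mrc1, Cx3cr1, Pou2f2, Tgfbr1, Tgfbr2 and Egr1, each with its direction kept.

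MHC class II genes, which present antigen to CD4 T cells, had no call, but all 9 tested of 11 had a fold change below 0 (median -0.44). Over all genes tested, 2237 of 4258 had a fold change above 0. H2-Aa averaged 6162 ± 3990.0 CPM in positive cells and 13376 ± 3815 CPM in negative cells, and Cd74, the invariant chain, 13696 ± 6438 and 32447 ± 7773 CPM. Without library 3, 5 of the genes were lower. Lysosome and cathepsin genes had a median of -0.55 over 18 tested, with Cd63 called, and 9 were lower without library 3. Among 17 tested lipid genes Lgals3 was higher and Cd36 lower (median 0.03), and Apoe, the apolipoprotein, averaged 11513 ± 12479 CPM in positive cells and 39486 ± 35240.2 CPM in negative cells, with no call. Among 22 transcription factor genes Egr1, an immediate early gene, was lower at -1.14 ± 0.27 (adjusted p = 0.0379, edgeR), a call lost whichever library was left out. Of 16 adhesion genes, 13 were tested and Vcam1 and Cd9 were lower (median -0.22). Of 19 Fc and clearance receptor genes, 13 were tested, Clec4d was higher and Mrc1 and Cd36 were lower (median -0.20). Of 23 matrix and growth factor genes, 12 were tested, Thbs1 was higher and Timp2, Tgfbr1 and Tgfbr2 were lower (median 0.06). Of 14 chemokine receptor genes, 7 were tested, Ccr2 was higher and Cx3cr1 lower (median -0.03), and of 17 sensor genes, 9 were tested and Mefv was higher (median -0.13). Ccr2, which came with the definition of the comparison, adds no independent weight to the receptor count. Only 3 of 18 cell cycle genes were high enough to test, with no call.

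**Figure D5:**
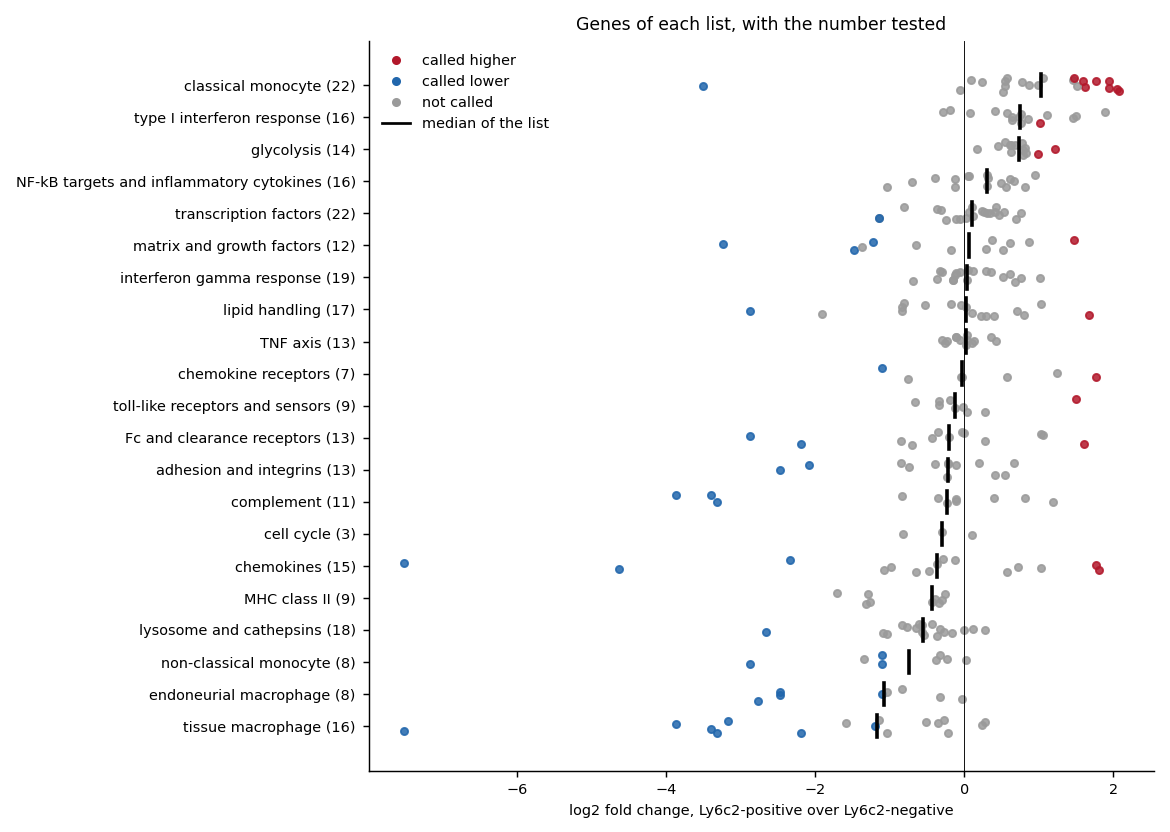
Log2 fold changes (Ly6c2-positive over Ly6c2-negative) of the tested genes of each list, 1 point per gene, with called genes marked and the list median as a bar. The classical monocyte list has the highest median of the lists with 5 or more tested genes (1.03) and the tissue macrophage list the lowest (-1.17), against 0.03 over all genes tested.

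Markers of other cells stood as follows, as sums of unscaled CPM over each list. T cell markers were at 53.3, 78.7 and 58.8 CPM in positive cells, against 71.2, 37.1 and 314 CPM in negative cells, with Cd3e and Cd3g at 0 by the rule. NK cell markers were at 52.2, 18.7 and 153 CPM, against 35.6, 21.2 and 224 CPM, and conventional dendritic cell markers at 79.4, 71.2 and 43.1 CPM, against 116, 49.5 and 337 CPM. In library 3 all 3 sums were higher in negative cells, and in libraries 1 and 2 they had no common direction. Plasma cell markers were higher in positive cells of each library, at 189, 131 and 302 CPM, against 135, 63.6 and 202 CPM. Endothelial markers were too, at 73.9, 29.97 and 35.3 CPM, against 37.5, 19.4 and 22.4 CPM. Plasmacytoid dendritic cell markers were at 145, 82.4 and 39.2 CPM, against 132, 84.8 and 112 CPM, higher in positive cells of library 1 only. Plasma and plasmacytoid dendritic cells also held Ly6c2, and their part was not tested on its own. Schwann cell markers were at 27.2, 41.2 and 35.3 CPM, against 79.8, 148 and 67.3 CPM, and Pmp22, a myelin protein gene, gave 3, 9 and 0 of these UMIs, against 44, 71 and 0. Pmp22 was itself lower (-2.75 ± 0.47, adjusted p = 0.00565, edgeR) but was too low to be tested without library 1 or without library 2. A further fit left out cells with a UMI of Cd3d, Trac, Trbc1, Trbc2, Cd79a, Ms4a1, Jchain, Ncr1 or Siglech. In it 59 genes were higher and 90 lower, and 95 of the 101 calls were shared. These markers cover no conventional dendritic cells, neutrophils, Schwann cells or endothelium, and Ncr1 had no UMI in either class. The fit therefore does not test the part of such cells.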

How the data were processed

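Single-cell RNA profiles of 3 libraries were read from the deposited table of UMI counts, whole numbers with no scaling, for 17168 genes in 11640 cells. The authors' cell table adds total counts and gene numbers, the percent of mitochondrial UMIs, cell cycle scores (deposited, not used) and class names. Recomputed totals equal the deposited ones in all cells. The submitters' processing notes name build mm10, Seurat 4.0 and Cell Ranger 5.0.1 without saying what each did. Cells had been filtered before deposit: no cell has above 2997 genes or a mitochondrial percent above 12.494. All deposited cells were kept. Scrublet (scanpy 1.11.5) called 84 doublets and none among the 436 cells compared. Libraries 1 and 2 share 6 barcodes, none of a cell compared here.

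For each library, the UMIs of Ly6c2-positive and of Ly6c2-negative cells were added up, without Ly6c2, and fitted with edgeR 4.0.16 in R 4.3.3 (TMM, filterByExpr, quasi-likelihood test, library as a block, Benjamini-Hochberg adjustment over 4258 genes, threshold 0.05). Libraries paired the sums: deviations of the 2 classes of a library from their class means correlated at 0.455, 0.341 and 0.373 over 4257 genes, and those of different libraries at most at 0.0809. Deviations from a mean of 3 libraries cancel out for each gene, which by itself lowers the values between different libraries. The pairing itself is given by the cell barcodes of a library. On simulated counts for 4190 genes with 100 changed by 1 and 100 by 2 on the log2 scale, 49 and 98 were recovered, with 3 unchanged genes called. These counts had a spread common to all genes, and the changed genes were drawn from the better expressed ones. The deposited name of library 1 carries a suffix whose meaning the labels leave unexplained.

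The cells, markers and gene lists were chosen with earlier results of these data known. Genes were named by rule: the 12 largest changes in each direction among called genes with the same direction in all libraries and at least 30 UMIs in the higher class (leaving out Ly6c2, its near-copy Ly6c1, antigen-receptor segments and unnamed predicted genes), the markers Ccr2, C1qa and Ccl8, 4 TNF genes, and up to 4 called members per list by smallest p. Ccl6, Adgre1, S100a6, S100a11 and uncalled genes, and Ly6c1 outside the rule, were named after their values were seen. Alternatives covered scaling, DESeq2 1.42.0, filters, block, depth, the Ly6c2 cut and each library left out. Of the list genes, 24 were not in the table. A further macrophage marker is not reported here. Gene positions are those of GENCODE M21, and promoters those of RefSeq on GRCm38.p6, both for the mm10 sequence, with 1-based coordinates. Depth limits the negative class of library 3 most (44566 UMIs).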

Additional observations from a re-analysis of the deposited data

How the results depend on the processing

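The numbers of genes called varied between settings, while the genes named by rule mostly kept their direction. Of 898 values that the 52 genes named by rule took under other settings, 883 had the main direction, and 745 also had the same call. Of these 745, 52 come from the setting without doublets, which left out none of the cells compared and so repeats the main fit. The genes named for the largest changes had been chosen for the same direction in all libraries. Their direction with a library left out was therefore largely given by that choice. Against 37 higher and 64 lower genes, 74 and 124 were called with no filter on low counts (12953 genes tested), 24 and 34 with cells thinned to 3000 UMIs (1768 tested), and 62 and 107 with Cd3e or Cd3g cells kept. The thinned fit left out cells with fewer than 3000 UMIs. It kept the other cells in the class given by their unthinned Ly6c2 UMIs, so it does not even out the effect of depth on the Ly6c2 cut. Without cells that carry the markers of other types named above 59 were higher. By DESeq2's Wald test 25 were higher and 39 lower, and only 22 of the 37 higher and 33 of the 64 lower calls were shared. In that test 14 genes named by rule lost their call, with directions kept. They were Olr1, Clec4d, Mefv, Thbs1, Zbp1, Pgk1, Eno1, Cd9, Cd63, Mrc1, Cx3cr1, Pou2f2, Tgfbr1 and Egr1. By total UMIs alone 31 were lower, and 34 higher and 30 lower calls were shared. With each gene's highest cell taken out of every sum, a setting chosen after seeing the data that removes extreme values, 77 were higher and 106 lower, and 89 of the 91 called genes that could be tested stayed called. Matching 170 pairs of cells on total UMIs gave 35 higher and 62 lower. Depth stayed unequal in library 3, where the 15 matched positive cells held 85913 UMIs, against 44566 in the 15 negative cells.

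Without the replicate block, 1 gene was higher and 7 were lower, and 41 of the 48 called genes named by rule lost their call, with directions kept. Leaving out 1 library gave 10 to 71 higher and 26 to 136 lower genes. Library 1 holds most cells, and a fit without it or library 2 rests mainly on 1 well filled negative class.

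Directions turned for 3 genes. S100a8 was at 0.54 without the 3 cells highest in it and 0.25 without its highest cell in every sum. Tnf, never called, was at -0.018 by DESeq2, -0.041 with 4 or more Ly6c2 UMIs, -0.036 with a separate class for 1 UMI, -0.26 without cells with other markers, -0.045 with Cd3e or Cd3g cells and -0.16 without its highest cell, and lay between -0.13 and 0.18 with 1 library left out. Tnfrsf1a, never called, was at 0.012 with no filter, 0.014 with Cd3e or Cd3g cells, 0.12 thinned and 0.092 without cells with other markers, and lay between -0.55 and 0.22 with 1 library left out. The cause was not tested. Depth limits what the negative class of library 3 can show: 11 of its 15 cells had fewer than 3000 UMIs.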

Other observations

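Genes too low in some sums to pass the filter add detail. With no filter, 71 further genes were called, 17 higher and 54 lower in Ly6c2-positive cells, and those named here were picked after their values were seen. Timp1, an inhibitor of matrix metalloproteases, had 8, 34 and 21 UMIs in positive cells of libraries 1, 2 and 3, against 0, 0 and 0 in negative cells, and was at least 24.0-fold higher when 3 UMIs are allowed over the negative class (at least 8.92-fold without library 2). Timp2, a gene for a related inhibitor, was lower in the same cells. Ccl24, a chemokine for eosinophils, had 5, 25 and 1 UMIs in positive cells and none in negative cells, at least 11.8-fold higher by the same measure. Most of its UMIs came from library 2, and without that library the bound was 1.85-fold.

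Among the lower genes, C4b, a complement component of the same pathway as C1q, had 8, 5 and 3 UMIs in positive cells, against 104, 90 and 0 in negative cells. Mertk, a receptor for the uptake of dying cells, had 6, 6 and 0 UMIs, against 36, 33 and 1. The class I-like gene H2-M2 had no UMI in positive cells, against 48, 11 and 1 in negative cells. Blnk (3, 1 and 0, against 53, 25 and 0) and Cd22 (2, 0 and 0, against 30, 17 and 0), like Cd72 known best from B cells, were lower in libraries 1 and 2. The summed B cell markers were at 122 and 33.7 unscaled CPM in positive cells of those libraries, against 166 and 60.1 CPM in negative cells, and their part was not tested. Gdf3, of the TGF-β family, had 13, 1 and 0 UMIs, against 104, 47 and 0. In library 3 these 6 genes had at most 3 UMIs in either class.

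Apoc2 had 127 UMIs in positive cells of library 3 and 2 in negative cells, and none in any cell of libraries 1 and 2. Kdr had no UMI in library 2, Mx1 none in library 3 and S100a9 none in libraries 2 and 3, so these genes cannot be compared across libraries.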
